A study of Mus musculus with 6 samples.

Results

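Replication-dependent histone genes encode the core histones H2A, H2B, H3 and H4 and the linker histone H1 that package newly copied DNA. The members were the protein-coding genes whose GENCODE M21 symbol starts with Hist1h, Hist2h, Hist3h or Hist4. GENCODE M21 lists 67 such genes, and 64 of the 41388 genes of the expression table were members: 6 of H1, 18 of H2A, 15 of H2B, 12 of H3 and 13 of H4. Hist2h2bb, Hist1h2bm and Hist1h2bh were not analysed here.

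The RNA came from primary murine hepatocytes of the strain C57BL/6J, liver cells isolated with collagenase and kept overnight in growth medium. Cells of the 3 libraries labelled b-gal (1, 2 and 3) received adenovirus encoding β-galactosidase (β-gal), a bacterial enzyme that serves as control. Cells of the other 3 (7, 8 and 9) received adenovirus encoding Aloxe3, an epidermal lipoxygenase. Both groups therefore carried the viral vector, at about 1000000 particles per 1000000 cells for 24 h, and the promoter that drives each insert is not given in the sources used here. Nothing in the labels says that the libraries of a group came from separate animals or isolations, so p-values measure the spread between these libraries, which may be technical.

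Unlike other mRNAs, replication-dependent histone mRNAs usually end in a short stem-loop instead of a poly(A) tail. The stem-loop-binding protein Slbp holds this structure through processing, translation and decay, and the mRNAs accumulate in S phase, when DNA is copied. Some of the same genes can also give polyadenylated transcripts, which are known from differentiated cells, and the histones used outside S phase come from separate, replication-independent genes. The libraries were made from RNA bound to oligo-dT beads, so a histone mRNA without a poly(A) tail would not be retained by design.

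The stem-loop is a sequence feature that most members shared, although the rule did not use it. In GENCODE M21 transcripts it was sought as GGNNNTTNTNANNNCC, on the transcript's strand, with pairing bases on the 2 sides of the loop and within 100 bases after the stop codon. Of the 48 members whose model covers at least 60 bases after the stop, 44 (91.67%) held it, against 5 of 20629 other coding genes (0.02424%), among them H2afx and H2bfm. The loop letters were widened after member sequences had been seen, so the share among members is a description. The lines below show it, in capitals with 5 flanking bases, in a highly expressed or tested member of each family, as DNA letters of the transcript 5′ to 3′.

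Hist1h1c: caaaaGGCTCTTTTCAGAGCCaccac

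Hist3h2a: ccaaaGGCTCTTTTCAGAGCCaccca

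Hist1h2bg: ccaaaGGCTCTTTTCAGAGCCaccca

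Hist1h3b: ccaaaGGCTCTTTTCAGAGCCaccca

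Hist1h4h: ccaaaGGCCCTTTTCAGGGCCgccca

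Hist1h4i: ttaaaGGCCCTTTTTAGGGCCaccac

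The H1, H2A, H2B and H3 examples held the same 16 letters, and both H4 examples had another stem. The 4 covered members without a match were Hist1h2bc, Hist2h2be, Hist1h2bq and Hist1h2br. The most abundant member was among them: the M21 model of Hist1h2bc leaves its first exon 9 bases after the stop codon and continues, across an intron of 7554 bases, with a second exon of 733 bases.

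Near-identical coding sequence is another shared feature, and it bears on which members can be counted, because the reads were 50 bases long and only those aligned to a single place were kept. The most widely shared window of that length occurred in 16 of the 18 H2A members, and it is shown here, as it reads in the coding strand, since no read of it can be assigned to 1 gene.

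Shared H2A window: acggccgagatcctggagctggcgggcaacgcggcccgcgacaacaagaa

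A median of 50.59% of a member's windows occurred in no other gene of the annotation, leaving aside genes that overlap the member. Where genes overlap, the share is therefore an upper limit. The median was 98.87% over the H1 genes, whose tails differ, and 26.99% over H2A. The H3, H2B and H4 medians were 42.76%, 50.26% and 60.53%.

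Promoters were compared in RefSeq (GRCm38.p6), where 58 members matched, over the 250 bases before the gene start. Hist1h2bc, Hist2h2be, Hist1h2ap, Hist1h3a, Hist1h3f and Hist2h4 did not match. Motifs were sought on both strands, except TATAA on the gene's strand. CCAAT stood in 81.03% of the members (33.85% of all 32851 promoters), in each H1, H2A and H2B promoter and in 3 of the 12 H4 promoters. TATAA stood in 53.45% (16% of all). The octamer ATTTGCAT, the site of Oct-1 factors, was found in 7 of 17 H2A and 4 of 13 H2B promoters and in none of H1, H3 or H4, and it occurs in 1.601% of all promoters. AAACACA, a box described in H1 promoters, was present in 5 of 6 H1 promoters (6.246% of all). It was also found in 2 of 17 H2A and 1 of 13 H2B promoters and in none of H3 or H4. A match is a run of letters and not a measured site. The promoters of the highest H1 and H2A members are given because together they hold all 4 motifs, shown in capitals.

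Hist1h1c, chr13:23738557-23738806, plus strand: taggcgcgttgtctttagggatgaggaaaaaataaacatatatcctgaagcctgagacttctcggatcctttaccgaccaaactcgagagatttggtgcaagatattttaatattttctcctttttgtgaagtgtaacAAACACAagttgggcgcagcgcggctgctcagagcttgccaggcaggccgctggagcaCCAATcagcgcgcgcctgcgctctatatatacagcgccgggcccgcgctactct

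Hist3h2a, chr11:58954435-58954684, plus strand: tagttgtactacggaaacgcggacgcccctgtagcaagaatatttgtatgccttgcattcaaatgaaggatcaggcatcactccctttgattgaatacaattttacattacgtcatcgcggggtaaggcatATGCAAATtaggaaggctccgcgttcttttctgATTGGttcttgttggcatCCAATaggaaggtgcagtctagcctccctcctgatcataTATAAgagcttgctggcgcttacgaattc

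The deposited values are RPKM, reads per kilobase of gene and per 1000000 reads. RPKM divides by the whole gene length while only uniquely placed reads were counted, so the level of a member with few windows of its own is a low estimate, and levels of members with unlike shares are set side by side as recorded. Depth was 29575553 to 32431318 reads in the β-gal libraries and 25521908 to 30399198 in the Aloxe3 libraries, and a single read over 1 kb corresponded to 0.0308 to 0.0392 RPKM. Library 9 stood apart from the other Aloxe3 libraries: the chi-square per degree of freedom of its gene reads was 9.24 and 10.07 against them, and 3.14 to 5.02 in the other within-group pairs. Aloxe3 itself rose from 1.95 ± 0.178 to 48.1 ± 7.32 RPKM (SD, n = 3), with an adjusted p of 4.74e-06 in limma, and every library matched its label. All 12 hepatocyte markers were above 0, with a summed level of 5328 to 5358 RPKM in β-gal and 5136 to 5311 in Aloxe3 libraries. Alb alone gave at least 4362 RPKM of it, and Tat, Cyp3a11, Cps1 and Cyp2e1 stayed under 3 RPKM. Of the 11 tested, 7 were higher and 4 lower in Aloxe3 libraries, with a median difference of 0.03, and Ttr alone passed the threshold (log2 difference -0.30, adjusted p = 0.0448 in limma, where 0.394% of all tested genes were called). The 6 cholangiocyte markers summed to 1509 to 1593 RPKM in β-gal and 1577 to 1716 in Aloxe3 libraries, of which Spp1 gave at least 1431, and none of the 3 tested was called. The 10 Kupffer and macrophage markers, none at 0 in every library, summed to 154 to 159 and 136 to 150 RPKM, nearly all of it Cd68 (at least 129 RPKM in each library), while Clec4f and Timd4 stayed under 0.11 RPKM. Of the 7 macrophage markers tested, 5 were lower and 2 higher in Aloxe3 libraries, and none was called. The 8 endothelial markers summed to 32.0 to 36.2 RPKM in β-gal and 31.5 to 36.6 in Aloxe3 libraries. Markers of stellate cells and fibroblasts, and those of lymphocytes and blood, summed to at most 4.041 RPKM in a library. The part of other cells in the results was not tested.

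Reads were recorded for 48 of the 64 members, and 16 were listed at 0 in all 6 libraries. Reads were derived from the steps of the RPKM values, and for 19 of the 48 the result is a lower limit, known only up to a common factor. By these derived reads 31 members had at least 3 in 1 or more libraries, 24 were above 0 in all 6 libraries, and 13 reached the mean of 0.5 RPKM at which genes were tested. Of the 48, 33 had at most 10 derived reads in each library. The signal was concentrated in 2 genes. Hist1h2bc held 72.7 to 77.2% of the summed RPKM of all members in each library, Hist1h1c 14.9 to 17.6%, and the other 62 members together 7.66 to 10.5%. In bulk RNA the number of cells that hold a histone mRNA and its amount per cell cannot be told apart.

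**Figure D1:**
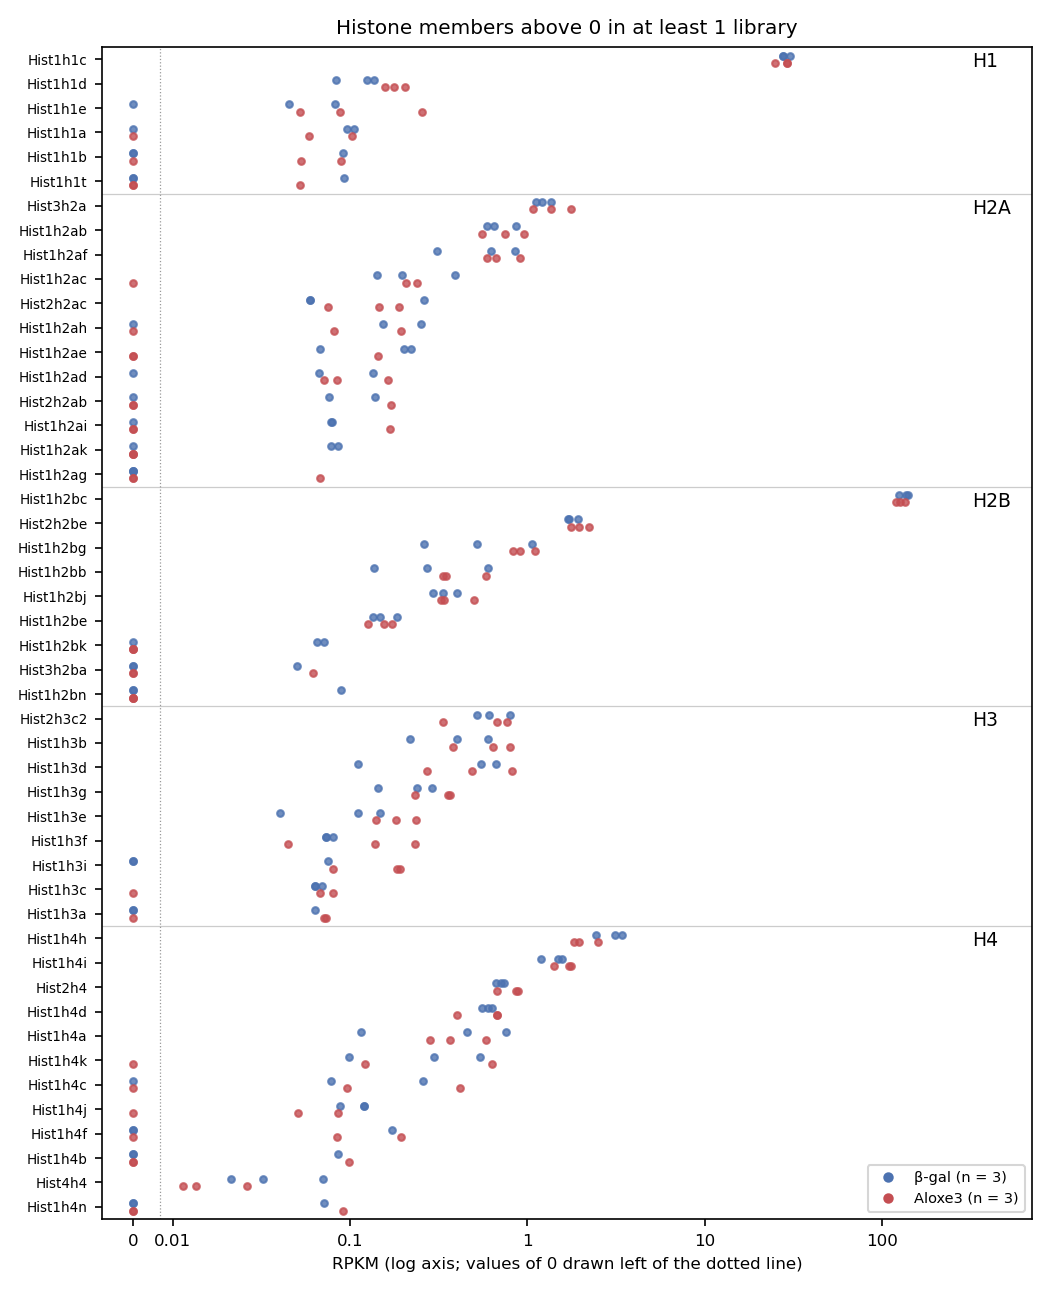
RPKM (log axis) of the 48 members above 0 in at least 1 library, by family and mean level, with 1 point for each of the 3 β-gal and 3 Aloxe3 libraries and values of 0 left of the dotted line. Hist1h2bc and Hist1h1c lie far to the right of all other members, whose means are at most 2.54 RPKM, and the points of the 2 groups mix in most rows.

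Members listed at 0 were mostly those with little sequence of their own. The median share of unique windows was 12.77% in the 16 members at 0 and 58.19% in the 48 above 0. Of the 16, 11 had under 25%, against 7 of the 48. The exceptions with at least 50% were Hist1h2aa, Hist1h2ba, Hist1h2bp and Hist2h3c1, named after their values were seen. Hist2h3c1 overlaps Gm20634, another gene of the expression table, and its share leaves that overlap aside. A count of 0 allows up to 3 reads in a library, for counting error only.

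In H2A the members at 0 were Hist1h2aa, Hist1h2an, Hist1h2ao, Hist1h2ap, Hist2h2aa1 and Hist2h2aa2, the last without a single window of its own. In H2B they were Hist1h2ba, Hist1h2bf, Hist1h2bl, Hist1h2bp, Hist1h2bq and Hist1h2br. In H3 they were Hist1h3h, Hist2h3b and Hist2h3c1, and in H4 Hist1h4m. All 6 H1 genes had reads. Hist1h2aa and Hist1h2ba are known as testis histones.

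**Figure D2:**
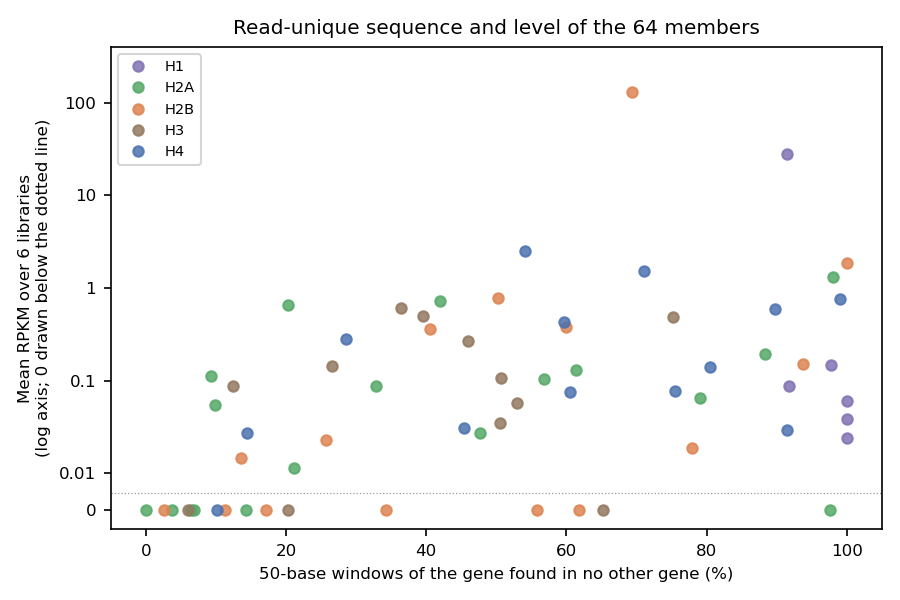
Mean RPKM over 6 libraries (log axis, 0 below the dotted line) against the percentage of 50-base windows of each of the 64 members found in no other gene, coloured by family. Genes that overlap a member were left aside. Of the 16 members at 0, 11 lie left of 25%, and the testis gene Hist1h2aa sits at 97.7%.

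How far the M21 model runs past the stem-loop also differed between members with more and fewer reads. Of the 22 members whose model ends within 100 bases after the stem-loop, 15 were above 0, with a median level of 0.0326 RPKM, and 1 had the poly(A) signal AATAAA in the last 50 bases of a transcript. Of the 22 whose model runs at least 100 bases further, 21 were above 0, with a median of 0.150 RPKM, and 11 had AATAAA. Over all members 15 of 64 had it, and 69.64% of 21884 other coding genes did. The longer models were longer in total (median exon length 1194 against 483.5 bases) and had more unique windows (79.2 against 40.1%), and these differences cannot be told apart. The annotation used for counting was an earlier one: for 19 of the 48 members the RPKM steps could not be whole reads over the M21 length. They included most detected members with longer models (such as Hist1h1d, Hist1h2ac and Hist1h4d) and fewer with shorter ones (such as Hist1h4h). How far the counted models of such members ran past the stem-loop is not known, and their unique windows may differ from those given here. The members at 0 have no steps to check, so the models used for counting may differ there too.

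Hist1h2bc, an H2B gene at chr13:23684199-23692908 on the plus strand (GRCm38), was the most abundant member and ranked 295 among all genes by mean level. Its level was 140.4, 135.7 and 124.4 RPKM in β-gal libraries 1, 2 and 3, and 119.8, 133.8 and 125.7 RPKM in Aloxe3 libraries 7, 8 and 9. The groups overlapped, with library 8 above library 3. The mean was 133 ± 8.19 RPKM in β-gal and 126 ± 7.05 in Aloxe3 (SD, n = 3). On the log2(RPKM + 1) scale, which is used for all differences and understates those of low genes, it differed by -0.08 (SE 0.06, 95% interval -0.21 to 0.06, adjusted p = 0.611 in limma). Its RPKM steps could not be whole reads over the 1156 exonic bases of M21, so its reads are known only up to a common factor.

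The second H2B gene, Hist2h2be on chromosome 3, was read at 1.72, 1.92 and 1.69 RPKM in β-gal and 2.21, 1.77 and 1.96 in Aloxe3 libraries. All its 50-base windows were unique. The ranges met between 1.77 and 1.92 RPKM, and the difference was 0.10 (SE 0.07, adjusted p = 0.578, limma). Hist1h2bg, which lies in the large cluster on chromosome 13, varied widely within the β-gal group, with 0.260, 0.517 and 1.06 RPKM against 0.904, 0.828 and 1.11 RPKM. Its difference was 0.30 (SE 0.17) at an adjusted p of 0.506 in limma. It was 0.14 without library 1 and 0.49 without library 3, and 0.71 with a pseudocount of 0.1 and 0.82 with voom, and no fit called it. The means of the other H2B genes were 0.379 RPKM for Hist1h2bb, 0.365 for Hist1h2bj, 0.153 for Hist1h2be, 0.0227 for Hist1h2bk, 0.0187 for Hist3h2ba and 0.0148 for Hist1h2bn.

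Hist1h1c, which encodes the linker histone H1.2, was the only tested H1 gene. It was read at 27.6, 30.4 and 27.5 RPKM in β-gal and 29.0, 29.2 and 24.8 in Aloxe3 libraries. Library 9 was the lowest of the 6 and library 2 the highest, and the other 4 lay between them. The difference was -0.04 (SE 0.07, 95% interval -0.21 to 0.12, adjusted p = 0.839, limma), and it was 0.03 without library 9. The 5 other H1 genes were far lower. Hist1h1d had a mean of 0.147 RPKM, Hist1h1e 0.0868, Hist1h1a 0.0605, Hist1h1b 0.0387 and the testis gene Hist1h1t 0.0241.

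Among the H2A genes, Hist3h2a on chromosome 11 was the highest, with 1.21, 1.12 and 1.35 RPKM in β-gal and 1.08, 1.76 and 1.36 in Aloxe3 libraries. Libraries 7 and 8 of the same group were its lowest and highest values. It overlaps Trim17 in the annotation. Hist1h2ab was read at 0.590, 0.652 and 0.858 against 0.746, 0.556 and 0.960 RPKM, and Hist1h2af at 0.621, 0.309 and 0.847 against 0.589, 0.907 and 0.664 RPKM. The groups overlapped in all 3 genes, and their differences were 0.10, 0.04 and 0.12 (SE 0.11, 0.10 and 0.13). The remaining H2A means were 0.195 RPKM for Hist1h2ac, 0.132 for Hist2h2ac, 0.113 for Hist1h2ah, 0.105 for Hist1h2ae, 0.0866 for Hist1h2ad, 0.0642 for Hist2h2ab, 0.0541 for Hist1h2ai, 0.0274 for Hist1h2ak and 0.0113 for Hist1h2ag.

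The H3 genes were low throughout, and 2 were tested. Hist2h3c2 was read at 0.517, 0.605 and 0.796 RPKM in β-gal and 0.768, 0.677 and 0.334 in Aloxe3 libraries. Hist1h3b was read at 0.40, 0.597 and 0.218 against 0.379, 0.637 and 0.793 RPKM. Their groups overlapped, library 9 was the lowest for the first gene and the highest for the second, and the differences were -0.05 (SE 0.12) and 0.19 (SE 0.13). Below them stood Hist1h3d with a mean of 0.485 RPKM, Hist1h3g with 0.271, Hist1h3e with 0.143, Hist1h3f with 0.107, Hist1h3i with 0.0883, Hist1h3c with 0.0572 and Hist1h3a with 0.0346.

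In H4, Hist1h4h at chr13:23531050-23531519 on the plus strand was the highest member, with 3.41, 3.13 and 2.43 RPKM in β-gal and 2.49, 1.95 and 1.84 in Aloxe3 libraries. The 2 highest values were β-gal and the 2 lowest Aloxe3, but libraries 3 and 7 crossed. The mean was 2.99 ± 0.503 in β-gal and 2.09 ± 0.346 RPKM in Aloxe3 (SD, n = 3), on 23 to 52 derived reads per library, a lower limit. Its difference of -0.37 (SE 0.11, 95% interval -0.63 to -0.11) did not pass the threshold (adjusted p = 0.280, limma), and the exact two-sided permutation test gave p = 0.2, where 3 against 3 libraries cannot go below 0.1.

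The other tested H4 genes lay on both sides of 0. Hist1h4i was read at 1.19, 1.57 and 1.49 RPKM in β-gal and 1.72, 1.76 and 1.41 in Aloxe3 libraries, a difference of 0.12 (SE 0.09). Hist2h4 was read at 0.665, 0.738 and 0.705 against 0.889, 0.868 and 0.673 RPKM, a difference of 0.09 (SE 0.07). In both genes libraries 7 and 8 exceeded every β-gal library and library 9 did not. Hist1h4d had means of 0.594 and 0.581 RPKM. Hist1h4a had a mean of 0.426 RPKM, Hist1h4k 0.282, Hist1h4c 0.141, Hist1h4j 0.0771, Hist1h4f 0.0751, Hist1h4b 0.0306, Hist4h4 0.0293 and Hist1h4n 0.0271.

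**Figure D3:**
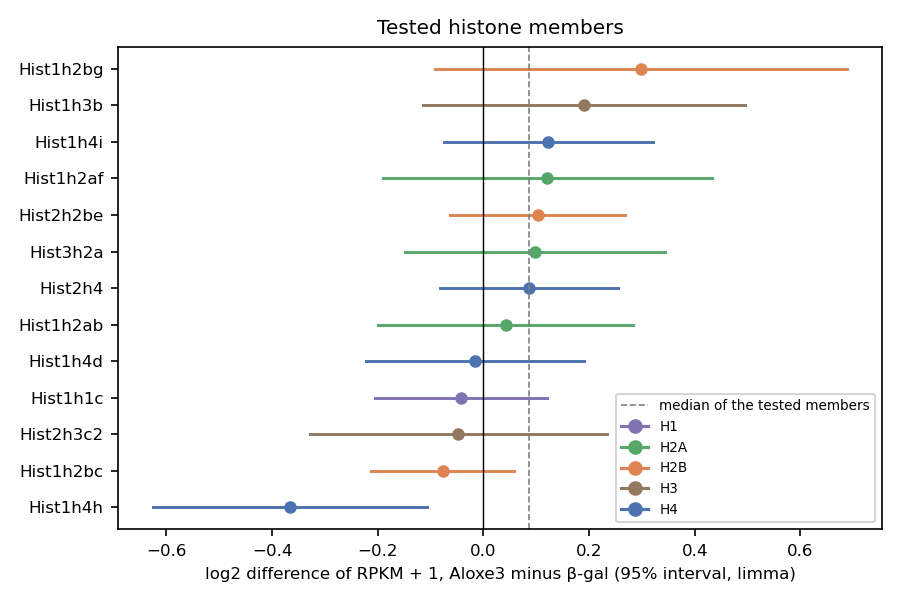
Differences of the 13 tested members on the log2(RPKM + 1) scale, Aloxe3 minus β-gal, with 95% intervals from limma (n = 3 per group) and colours by family. The interval of Hist1h4h, at -0.37, is the only one that leaves out 0, and the median of the members, drawn as a dashed line, is 0.09.

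None of the 13 tested members passed an adjusted p of 0.05 in limma, where 50 of 12693 genes did, 0.394% of those tested. At an unadjusted p under 0.05 stood 1 member, Hist1h4h, and 12.7% of all tested genes. limma's voom on the reads derived from the RPKM steps also called 0 members, with 1 at an unadjusted p under 0.05, and all other settings called 0. Of the tested members 8 were higher and 5 lower in Aloxe3 libraries, and their median difference was 0.09, beside 0.0049 over all tested genes. The groups overlapped in all 13, while in 19.9% of the tested genes they did not. With no filter on low values, 0 of 48 members were called (0.028% of 24989 genes), and 4 had an unadjusted p under 0.05 (8.76%). There the groups did not overlap in 3 of 48 members, against 14.3% of those genes: Hist1h1d and Hist1h3i were higher and Hist1h4j lower in Aloxe3 libraries, with at most 4 derived reads per library (a lower limit for Hist1h1d), and no fold change is given for them.

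The family sums did not separate the groups either. H2B summed to 137 ± 7.59 RPKM in β-gal and 130.3 ± 7.00 in Aloxe3 libraries (SD, n = 3), H1 to 28.8 ± 1.65 and 28.1 ± 2.35, and H4 to 6.83 ± 0.411 and 6.16 ± 0.782. H2A summed to 3.43 ± 0.573 and 3.54 ± 0.708 RPKM. H3 showed the widest gap relative to its spread, with 1.57, 2.25 and 2.17 RPKM against 2.63, 2.98 and 2.23 RPKM, and library 9 just below library 2. After rescaling to the same median, or without Hist2h3c2, the H3 groups no longer overlapped. In the latter case they held 1.05 to 1.65 and 1.86 to 2.31 RPKM. Without its highest member the difference of the means turned in 4 families: from -6.44 to 0.597 RPKM in H2B, from -0.664 to 0.143 in H1, from -0.667 to 0.232 in H4 and from 0.106 to -0.0638 in H2A. The groups overlapped in each. Leaving out both Hist1h2bc and Hist1h1c, all members summed to 15.9 ± 1.97 and 16.7 ± 1.42 RPKM, on 426 to 551 derived reads per library.

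**Figure D4:**
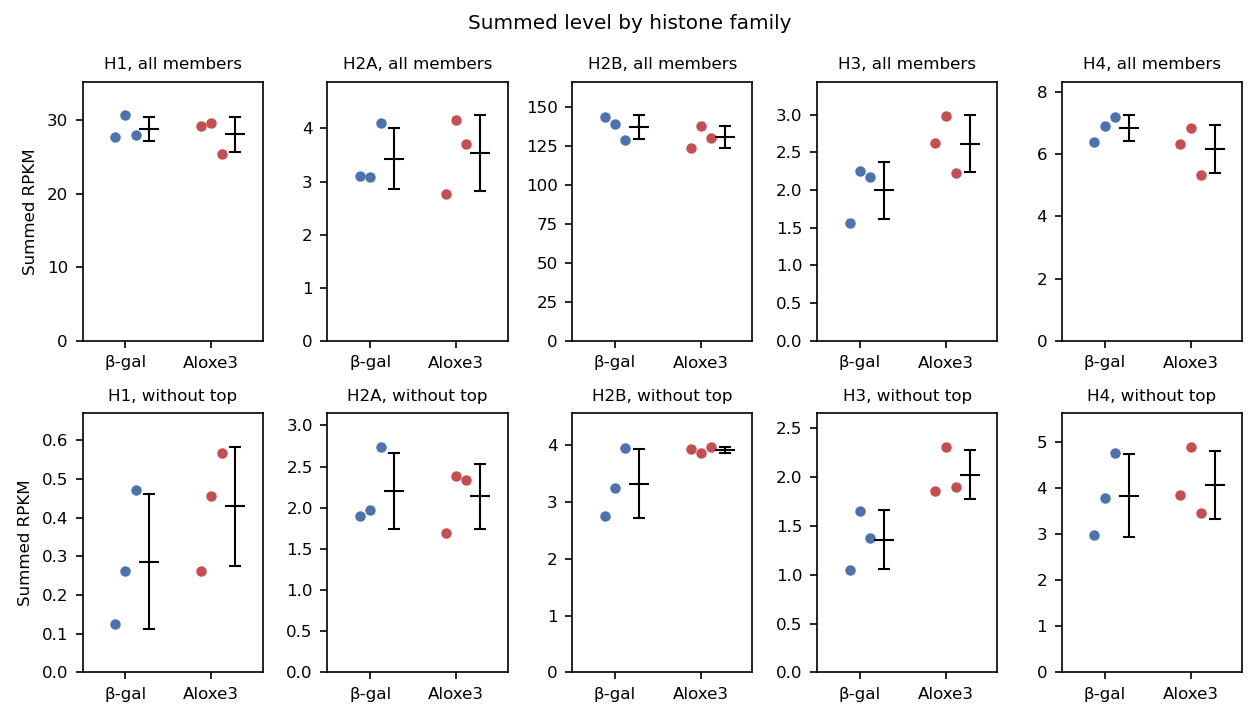
Summed RPKM of each histone family per library (points), with the mean and SD of the 3 β-gal and 3 Aloxe3 libraries beside them, for all members (top) and without the member with the highest mean (bottom). The groups overlap in every panel except H3 without Hist2h3c2.

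The replication-independent histones, which replace the others outside S phase, had most of the recorded H2A and H3 RPKM, where the members' levels are low estimates. The 6 H2A variants summed to 144.3 to 151 RPKM per library and the 18 members to 2.77 to 4.15, while the 3 H3.3-type genes summed to 42.1 to 49.7 RPKM and the 12 members to 1.57 to 2.98. In H1 the 2 sums were closer, with 20.4 to 26.2 RPKM for H1f0 and H1fx and 25.4 to 30.7 RPKM for the members. The members were higher in 5 of the 6 libraries and lower in library 9. H2afx, which holds the stem-loop, was among the 6 H2A variants, with means of 28.8 and 30.1 RPKM. The groupings by family were added after values were seen.

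Of the 17 replication-independent genes 11 were tested and none passed the threshold in limma, with 2 at an unadjusted p under 0.05 (12.7% of all tested genes). Of the 11, 10 had a difference above 0, as had 6647 of the 12693 tested genes. H3f3b, an H3.3 gene, was read at 37.3, 41.7 and 41.5 RPKM in β-gal and 41.2, 42.1 and 43.8 in Aloxe3 libraries. Its sister gene H3f3a had means of 5.32 ± 0.476 and 5.71 ± 0.395 RPKM (SD, n = 3). H2afz, which encodes H2A.Z, had 4.31 ± 0.192 and 4.35 ± 0.439 RPKM, with a difference of 0.0064 that turned to -0.0054 when libraries were rescaled to the same median.

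The highest of these variants was H2afj, with 72.3 ± 2.93 and 69.3 ± 2.56 RPKM and an adjusted p of 0.602. The smallest p belonged to H2afv, a second H2A.Z gene, with 13.7, 14.3 and 14.8 RPKM against 15.6, 17.3 and 15.4 RPKM. Its groups did not overlap, and its adjusted p was 0.293 in limma.

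Genes that make or handle histone mRNA were described from lists written with earlier results of these data known. In the list of histone RNA processing 25 genes were tested, 1 rose and 0 fell, where 0.394% of all tested genes were called. The median difference was -0.0026. At an unadjusted p under 0.05, 4 were higher and 1 lower, where 928 of the 12693 tested genes were higher and 688 lower. The one that rose was Slbp, whose product binds the stem-loop, with 7.12, 6.86 and 6.94 RPKM in β-gal and 9.11, 9.29 and 10.3 in Aloxe3 libraries. All Aloxe3 values exceeded all β-gal values, and the difference was 0.40 (SE 0.05, adjusted p = 0.0270 in limma). After rescaling to the same median the adjusted p was 0.0575, and it was between 0.0766 and 0.13 without library 1, 2, 3, 7 or 8. The most abundant gene of the list, Snrpb, a spliceosomal Sm protein, had means of 86.7 ± 2.84 and 86.6 ± 4.79 RPKM.

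Of 14 tested genes in the histone transcription list 3 rose and none fell, where 0.394% of all tested genes were called, and the median difference was 0.04. At an unadjusted p under 0.05, 5 were higher (7.31% of all tested genes) and 0 lower. The 3 that passed the adjusted threshold were Cdk2, Ccne1 and Ccne2, the kinase and the cyclins that drive entry into S phase, and the last 2 were named after their values were seen. Cdk2 was read at 10.2, 9.80 and 10.2 RPKM in β-gal and 12.8, 12.5 and 13.0 in Aloxe3 libraries, a difference of 0.32 (SE 0.04, adjusted p = 0.0226, limma), without overlap. Ccne1 had means of 12.4 ± 1.26 and 19.2 ± 1.35 RPKM, and Ccne2 1.97 ± 0.185 and 4.05 ± 0.611 RPKM. Npat, a coactivator of histone gene transcription that cyclin E and Cdk2 phosphorylate, was read at 6.29, 6.13 and 6.40 against 6.87, 7.18 and 6.90 RPKM, also without overlap, at an adjusted p of 0.269. Yy1, the most abundant gene of the list, had means of 40.3 ± 0.912 and 40.6 ± 2.22 RPKM.

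Among 31 tested histone chaperones, the proteins that escort histones to DNA, 3 rose and none fell (0.394% of all tested genes were called), with a median of 0.05. At an unadjusted p under 0.05, 10 were higher (7.31% of all tested genes) and 1 was lower. Dnajc9, a chaperone of H3 and H4, was read at 8.06, 8.56 and 7.65 RPKM in β-gal and 11.03, 11.8 and 11.5 in Aloxe3 libraries, with no overlap and a difference of 0.45 (SE 0.05, adjusted p = 0.0215, limma). The other two, Chaf1b and Nasp, named after their values were seen, had means of 3.62 and 5.04 RPKM and of 6.77 and 8.54 RPKM. Anp32b had the highest level, with 138.9 ± 3.72 and 162 ± 14.2 RPKM, and its adjusted p was 0.262.

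In the S phase and cell cycle list 37 genes were tested, 5 rose and none fell, where 0.394% of all tested genes were called. At an unadjusted p under 0.05, 28 were higher (7.31% of all tested genes) and 0 lower. The median difference was 0.26. Lig1, the ligase that joins Okazaki fragments, was read at 10.7, 10.06 and 10.4 RPKM in β-gal and 13.8, 13.1 and 13.6 in Aloxe3 libraries, with a difference of 0.34 (SE 0.04, adjusted p = 0.0226, limma). The others were Mcm6 and E2f7, named after their values were seen, and again Ccne1 and Ccne2. Mcm2, a subunit of the replicative helicase and the most abundant gene tested in this list, had means of 38.7 ± 2.55 and 42.2 ± 1.79 RPKM and an adjusted p of 0.406. Of the calls in the 4 lists, those of Cdk2, Lig1, Nasp, Mcm6 and E2f7 were lost whichever library was left out (adjusted p from 0.0623 to 0.239). Dnajc9 passed only without library 2, Chaf1b and Slbp only without library 9, Ccne1 only without library 1 and Ccne2 without library 8 or 9. All 10 missed the threshold with no filter on low values.

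**Figure D5:**
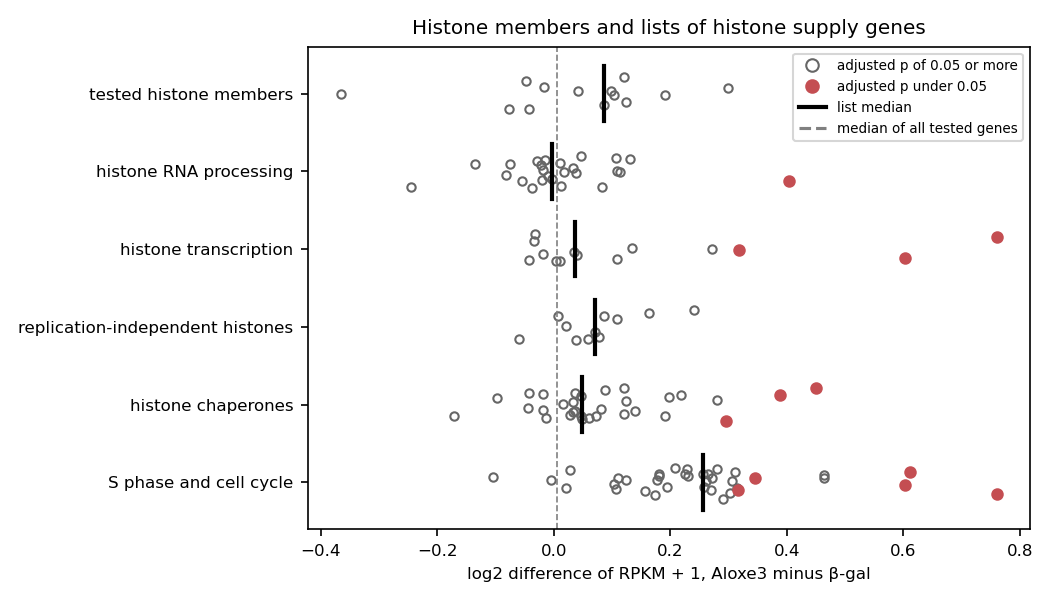
Differences on the log2(RPKM + 1) scale, Aloxe3 minus β-gal, of each tested gene among the members and in the 5 lists, with filled points for an adjusted p under 0.05 in limma, thick bars for list medians and a dashed line for the median of all tested genes. The S phase and cell cycle list has its median at 0.26 and the tested histone members at 0.09, with no filled point among the members.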

How the data were processed

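The libraries were poly(A)-selected with oligo-dT beads, primed with random hexamers and sequenced as single reads of 50 bases. Per the labels and methods, the authors aligned them with STAR 2.0.4b to the mouse assembly GRCm38.p2 of Ensembl release 76 and counted uniquely placed reads per gene with featureCounts 1.4.5. The authors deposited RPKM values, which were used without further normalization. Whether counting used strand is not given in the sources used here, so overlapping genes cannot be told apart. Reads were derived from the steps of the RPKM values (tolerance 0.02 reads), at the M21 length for 16539 genes and otherwise at the smallest length that gives whole reads. For histone members, only lengths of at least 300 bases were allowed in that search. The derived reads add up to 99.92% of each library.

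The 12693 genes averaging 0.5 RPKM or more were tested as log2(RPKM + 1) with limma 3.58.1 in R 4.3.3 (eBayes with trend, Benjamini-Hochberg over all tested genes, threshold 0.05). No batch was fitted, as the libraries came from a single run. The alternatives were another pseudocount, other filters, other scalings, eBayes without trend, voom on derived reads and each library left out. The rule for named genes took every member above 0 with its mean, library values for the 3 highest tested members of a family and the 3 smallest p in each direction, and from each list the smallest p, the highest level and Slbp, Npat, H3f3a, H3f3b, H2afz and Aloxe3. The members and lists were chosen with earlier results of these data known. The script was tested on simulated data. Stem-loops and 50-base windows come from GENCODE M21 transcripts, promoters from RefSeq. Tables and plots were made in Python 3.11.15 with pandas 2.3.3, numpy 2.4.6 and matplotlib 3.10.9.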

Additional observations from a re-analysis of the deposited data

How the results depend on the processing

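No paired analysis was possible because the groups share no replicate number. No member was called under any of the 13 alternatives, and no fold change changed sign for Hist1h2bc in these 13 fits, for Hist1h4h, Hist1h2bg, Hist1h4i, Hist2h2be and Hist2h4 in the 12 that tested them, or for Hist1h3b in the 9 that tested it. The difference of Hist1h2bg ranged from 0.14 to 0.82. The median of the tested members moved from 0.09 to 0.15 with a pseudocount of 0.1, 0.15 with voom, 0.013 with no filter (48 members) and -0.060 with a filter at 5 RPKM (2 members), and lay between 0.014 and 0.10 with each library left out. With each library left out, the sign turned in part of the fits for Hist3h2a (range -0.0095 to 0.20), Hist1h2af (-0.013 to 0.24), Hist1h1c (-0.081 to 0.031), Hist1h2ab (-0.041 to 0.13), Hist2h3c2 (-0.13 to 0.075) and Hist1h4d (-0.060 to 0.069).

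Genes called over all tested genes fell to 7 with no filter, rose to 173 with voom, and were 6 to 19 with each library left out (main 50). Those higher were 5, 147 and 6 to 16 (main 45), and those lower 2, 26 and 0 to 3 (main 5), with 3 under quantile normalization and 2 without the variance trend.

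The members with reads numbered 31 at 3 reads in a library, 24 above 0 in all libraries and 13 at a mean of 0.5 RPKM. Allowing 1 mismatch among members lowered the median share of unique windows from 50.59% to 37.51%. Without the highest member the H4 sum differed by 0.23 RPKM, and the differences of H2B (0.60), H1 (0.14) and H2A (-0.064) also turned, and members whose groups did not overlap went from 0 to 3 with no filter.

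With no filter on low values none of the list genes was called in the lists of histone RNA processing (0), histone transcription (0), histone chaperones (0), and S phase and cell cycle (0). The processing list also lost Slbp after rescaling to the same median (0) and quantile normalization (0), with 0 to 1 called when a library was left out. With each library left out, the transcription list had 0 to 1 calls, the chaperones 0 to 1 and the S phase list 0 to 2, and the S phase list had 3 under quantile normalization, 3 without the trend and 16 with voom. List medians moved for transcription to 0.074 with a filter at 5 RPKM and 0.021 with quantile normalization, and for chaperones to 0.077 with quantile normalization. With a library left out they ranged for transcription from 0.026 to 0.058, for replication-independent histones from 0.026 to 0.091 and for chaperones from 0.051 to 0.089. H2afz turned to -0.0054 after rescaling, -0.015 with quantile normalization and ranged from -0.054 to 0.065 with a library left out. Snrpb turned to 0.015 with quantile normalization and ranged from -0.045 to 0.033, and Yy1 turned to -0.0042 after rescaling and ranged from -0.019 to 0.054, with a library left out. The causes were not tested. Of the 48 members with reads, 33 had at most 10 derived reads in each library, a lower limit for members whose reads are known only up to a common factor.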
